A study of Mus musculus with 3 samples.

Results

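The windows around Zfp42, Utf1, Lin28a and Otx2 held 13 of the 5189 peaks in the deposited FLAG-Tex10 list. The members were taken by position alone: every peak that overlapped by at least 1 bp a fixed mm9 window at each of the 4 genes, on chromosome 8 from 44330000 to 44445000 for Zfp42 (115 kb), on chromosome 7 from 147080000 to 147180000 for Utf1 (100 kb), on chromosome 4 from 133505000 to 133625000 for Lin28a (120 kb) and on chromosome 14 from 49225000 to 49340000 for Otx2 (115 kb). The Lin28a window held 5 peaks, the Zfp42 and Otx2 windows 3 each and the Utf1 window 2. Each peak lay wholly inside its window. The windows were taken as given, and where each gene lies within its mm9 window was not checked, so a peak at a gene means here a peak in its window.

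The cells were J1 mouse embryonic stem (ES) cells of the 129SV strain, grown in serum with leukaemia inhibitory factor. All 3 libraries of the series, a FLAG chromatin immunoprecipitation (ChIP), its counterpart with normal mouse IgG, and input DNA, came from cells that carried an ectopic 3xFlag-Tex10 transgene brought in on a piggyBac transposon and were labelled T10F10, so even the control libraries held the tagged protein. ChIP followed by sequencing recovers DNA bound by, or lying near, the tagged protein, and the tag here reports the ectopic Tex10 and not the cells' own. A peak list for the FLAG library was the measurement used, and the other 2 libraries were not analysed here. With 1 FLAG library there is no replicate, so no difference below has a measured error, and no test was made. The list gives no reads, and the depth behind a peak is unknown.

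Zfp42, Utf1, Lin28a and Otx2 mark where an ES cell stands between self-renewal and differentiation. Zfp42, also called Rex1, encodes a zinc finger protein that is abundant in naive ES cells and is lost early when they leave that state. Utf1 encodes a chromatin-associated factor of undifferentiated ES cells, and its enhancer is a classic target of the POU factor Oct4 together with Sox2. Lin28a encodes an RNA-binding protein that blocks the maturation of let-7 microRNAs and is also used in reprogramming. Otx2 encodes a homeodomain factor that acts when naive cells move towards the epiblast-like state and later in the forebrain. Super-enhancers, named in the series title as under the control of Tex10, are runs of closely spaced enhancers at genes that define a cell type.

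The promoters of the 4 genes are shown as the regulatory sequence on hand for them. They set side by side which motifs of ES cell factors each holds, and which general promoter motifs (GC box and TATA box). Each line gives the 250 bases before the annotated start, 5′ to 3′ on the strand of the gene, from RefSeq on GRCm38.p6, and all 4 genes had an entry. Zfp42, Lin28a and Otx2 lie on the reverse strand and Utf1 on the forward strand. For Otx2, which has 4 starts in that table, the most upstream is printed. Capitals mark matches to 6 motifs searched on both strands.
Zfp42: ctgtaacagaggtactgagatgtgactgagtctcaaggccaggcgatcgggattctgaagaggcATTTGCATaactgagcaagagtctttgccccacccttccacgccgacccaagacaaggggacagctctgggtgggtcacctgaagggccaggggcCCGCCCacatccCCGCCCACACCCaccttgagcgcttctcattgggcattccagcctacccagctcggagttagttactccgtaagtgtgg
Utf1: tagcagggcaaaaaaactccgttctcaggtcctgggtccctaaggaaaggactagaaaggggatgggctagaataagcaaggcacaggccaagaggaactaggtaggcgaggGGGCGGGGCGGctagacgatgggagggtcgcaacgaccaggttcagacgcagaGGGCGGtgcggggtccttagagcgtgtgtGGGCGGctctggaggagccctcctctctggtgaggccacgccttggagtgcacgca
Lin28a: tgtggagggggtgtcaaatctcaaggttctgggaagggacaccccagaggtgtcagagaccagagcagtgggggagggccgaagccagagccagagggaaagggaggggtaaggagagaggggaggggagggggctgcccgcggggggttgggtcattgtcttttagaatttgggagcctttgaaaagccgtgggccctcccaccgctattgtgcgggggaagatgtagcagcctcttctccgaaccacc
Otx2: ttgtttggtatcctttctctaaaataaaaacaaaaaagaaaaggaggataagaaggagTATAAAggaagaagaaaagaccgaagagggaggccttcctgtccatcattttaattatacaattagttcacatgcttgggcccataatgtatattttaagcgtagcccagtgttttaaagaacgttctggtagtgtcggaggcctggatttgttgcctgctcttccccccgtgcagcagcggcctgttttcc

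The motifs were a POU octamer (ATTTGCAT), a SOX motif (CTTTGTT), a KLF motif (GGGNGTGG), an estrogen-related receptor motif (TCAAGGTCA), the GC box (GGGCGG) and the TATA box (TATAAA). The Zfp42 promoter held the octamer at 186 to 179 bases before the start, a motif found in 1.60% of 32851 promoters of the same length. It also held 2 GC boxes on the strand opposite to the printed one, a motif of 32.7% of promoters, and the one nearer the start overlapped a KLF match (15.9% of promoters) at 75 to 68 bases before the start. The Utf1 promoter held 4 GC boxes on the printed strand, of which the first pair overlapped. The most upstream Otx2 promoter held a match to the letters TATAAA at 192 to 187 bases before the start. Such a match occurred anywhere in the 250 bases in 12.4% of promoters, and whether this one acts as a TATA box was not tested. The Otx2 start farthest downstream had 3 KLF matches within the 250 bases before it. The percentages count promoters with at least 1 match, and shares with several matches were not computed. Otx2 had 4 starts searched, against 1 for each other gene. None of the 6 motifs had a match in the Lin28a sequence. The SOX motif, in 5.03% of promoters, and the receptor motif, in 0.387%, matched none of the promoters of the 4 genes. The Otx2 sequence was also the poorest in G and C of those printed, at 42.0% against 58.4% for Zfp42, 61.6% for Utf1 and 61.2% for Lin28a. The median over all promoters was 52.4%. The Otx2 starts not printed had 49.2%, 48.4% and 53.6%, so the printed start is the lowest of that gene. The peaks are on mm9 and these sequences on GRCm38.p6, so peaks were not placed against promoters, exons or introns, and the bases under the peaks were not analysed here.

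Each window had at least 1 peak that scored well above the middle of the list, and at least 1 that scored below it. The score is a number per peak that the authors deposited without naming its scale, and it was used only to order peaks within the list. A strong or weak peak means here a peak with a high or low score, not a measured amount of binding. The highest peak scored 31.3 at Lin28a, 20.9 at Zfp42, 19.1 at Utf1 and 13.2 at Otx2, against a list median of 5.22. Their ranks among the 5189 peaks were 121, 197, 231 and 441. With no replicate, the order of neighbours such as Zfp42 and Utf1 has no measured error. Of the 13 peaks, 5 (38.5%) scored 10 or more, where 14.5% of all peaks did, and 7 (53.8%) were at or above the median of the list. The median of the 13 scores was 5.30, close to that of the list. Leaving aside the highest peak of each window, the other 9 had a median score of 4.45, and 1 of them, at Otx2, reached 10.

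**Figure D1:**
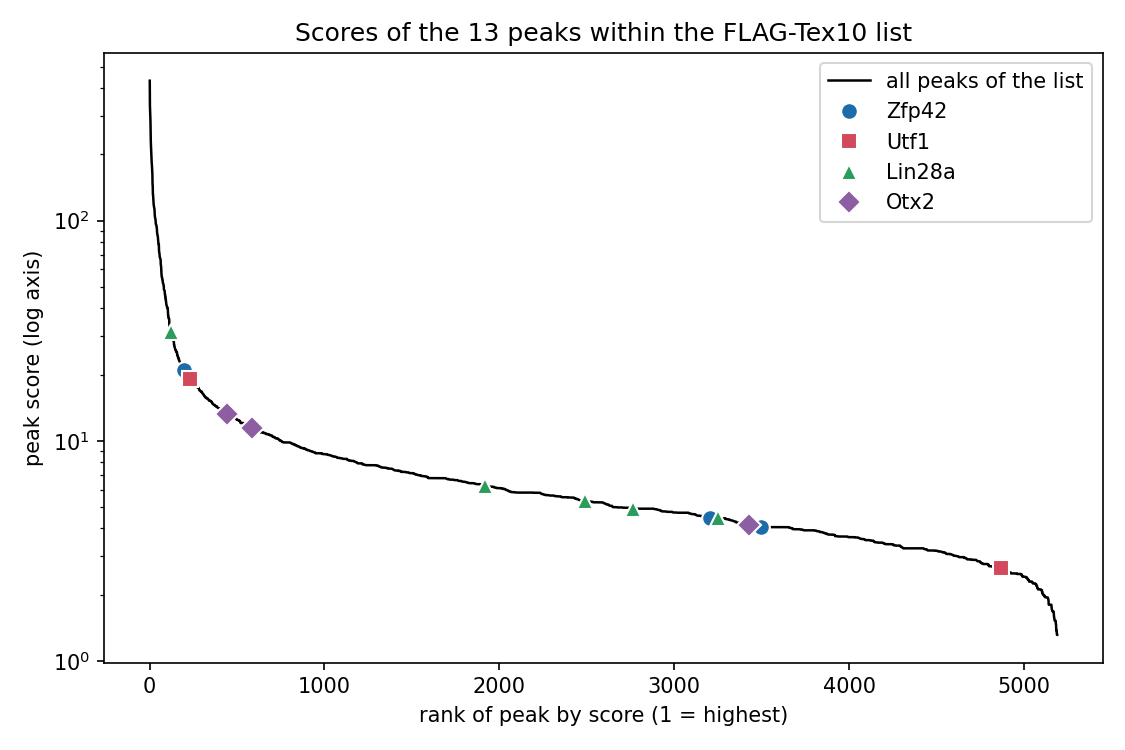
Peak score (log axis) against rank by score for all 5189 peaks (line), with the 13 peaks of the 4 windows as coloured points. The highest peaks of the Lin28a, Zfp42 and Utf1 windows stand at ranks 121 to 231 and both stronger Otx2 peaks at 441 and 585, while the other 8 peaks lie between ranks 1917 and 4868.

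At Zfp42, the highest-scoring peak lay apart from a close pair of weak peaks. The first of the pair (chr8:44391125-44391630) was 506 bp wide and scored 4.45, and the second (chr8:44392265-44392561) was 297 bp wide and scored 4.05. Both scores were under the list median, and 634 bp separated the pair. The third peak (chr8:44406003-44406585), 13.4 kb farther on, was 583 bp wide and scored 20.9, so 3.78% of the list and 3.16% of the 443 peaks on chromosome 8 scored higher. Beyond it no peak was listed for 1614 kb, an interval that 7.43% of the 5101 intervals between neighbouring autosomal peaks exceeded. Towards the chromosome start the next peak, scoring 4.89, came after 125 kb, near the median interval of 140 kb. In the RefSeq gene order (GRCm38.p6) Zfp42 lies between Triml2 and Adam26b.

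The score of the second Zfp42 peak was held, to the last digit, by 150 peaks of the list. Such often repeated scores, each held by 90 or more peaks, belonged to 573 peaks (11.0%) of the list, but to 7 of the 443 peaks of chromosome 8 (1.58%), of which the Zfp42 peak was 1. Among the other windows the first Lin28a peak had a score of this kind, held by 118 peaks. Such scores made up 8.91% of peaks on chromosome 7, 11.2% on chromosome 4 and 12.8% on chromosome 14.

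At Utf1, both peaks lay near the middle of the window, 1 weak and 1 strong. The first (chr7:147129882-147130105) was 224 bp wide, the narrowest width in the list, which 606 peaks (11.7%) shared. It scored 2.65, the lowest of the 13, and 93.8% of the list scored higher. The second (chr7:147131432-147131792) began 1.33 kb farther on, was 361 bp wide and scored 19.1, so 4.43% of the list scored higher. From the first to the last peak of the window the span was 1.91 kb, against 15.5 kb at Zfp42, 46.9 kb at Otx2 and 53.2 kb at Lin28a. No other peak was listed for 1088 kb before the pair, an interval that 11.2% of autosomal intervals exceeded. After the pair none was listed for 285 kb, which 34.5% of autosomal intervals exceeded. Utf1 lies between Kndc1 and Spef1l in the RefSeq order, and which of the neighbouring genes a peak belongs to was not tested in any window.

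At Lin28a, the peaks fell into a pair and a group of 3 that were 49.0 kb apart. The pair comprised a peak of 319 bp scoring 4.91 (chr4:133523779-133524097) and a peak of 283 bp scoring 6.26 (chr4:133524271-133524553), with 173 bp between them. The group of 3 began with peaks of 227 bp (chr4:133573526-133573752) and 256 bp (chr4:133574672-133574927), which scored 4.44 and 5.30. It ended with the strongest of the 13 peaks (chr4:133576541-133576947), 407 bp wide with a score of 31.3, which 2.31% of the list exceeded. Within this group each peak scored higher than the one before it. The last ranked 121 in the list, and the next highest of the window, the peak scoring 6.26, ranked 1917. On chromosome 4 it ranked 14 of 375. The nearest peaks outside the window scored 14.1 (152 kb before the pair) and 4.99 (446 kb after the last peak). Of autosomal intervals, 48.2% and 25.1% were longer than these distances. Lin28a lies between Dhdds and Crybg2 in the RefSeq order.

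At Otx2, no peak lay within 12500 bp of another, and 2 of the 3 scored over 10, against 1 in each of the other windows. The first peak (chr14:49274272-49275014) was 743 bp wide, the widest of the 13, and 2.51% of the list was wider. It scored 11.4, rank 585. The second (chr14:49288657-49288963), 13.6 kb on, was 307 bp wide and scored 4.16. The third (chr14:49320591-49321154), another 31.6 kb on, was 564 bp wide and scored 13.2, rank 441. It lies outside a window trimmed by 20 kb on each side, in which the first peak, scoring 11.4, is the highest. On chromosome 14, 21 of 195 peaks (10.8%) scored 10 or more, against 14.5% of the list, and the third and first Otx2 peaks ranked 10 and 13. This share is not given here for the chromosomes of the other genes, and the difference was not tested. Otx2 lies between Tmem260 and Exoc5 in the RefSeq order. The nearest peaks outside the window scored 4.05, at 208 kb before the first peak, and 6.18, at 427 kb after the last. Of autosomal intervals, 40.9% and 26.1% were longer than these distances.

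In all 4 windows the strongest peak was the last along the forward strand, a pattern chosen after its values were seen. Among the 1012 autosomal windows of 115 kb with 2 or more peaks, the strongest was the last in 42.9%. Of these windows, 352 held 3 or more peaks, as the Zfp42, Lin28a and Otx2 windows did. The share among those 352, and at the lengths of the Utf1 and Lin28a windows, was not computed. Utf1 lies on the forward strand and the other genes on the reverse, so the direction relative to the gene differed. The middle of the strongest peak lay 1.61 kb past the centre of the window at Utf1, 11.7 kb at Lin28a, 18.8 kb at Zfp42 and 38.4 kb at Otx2.

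**Figure D2:**
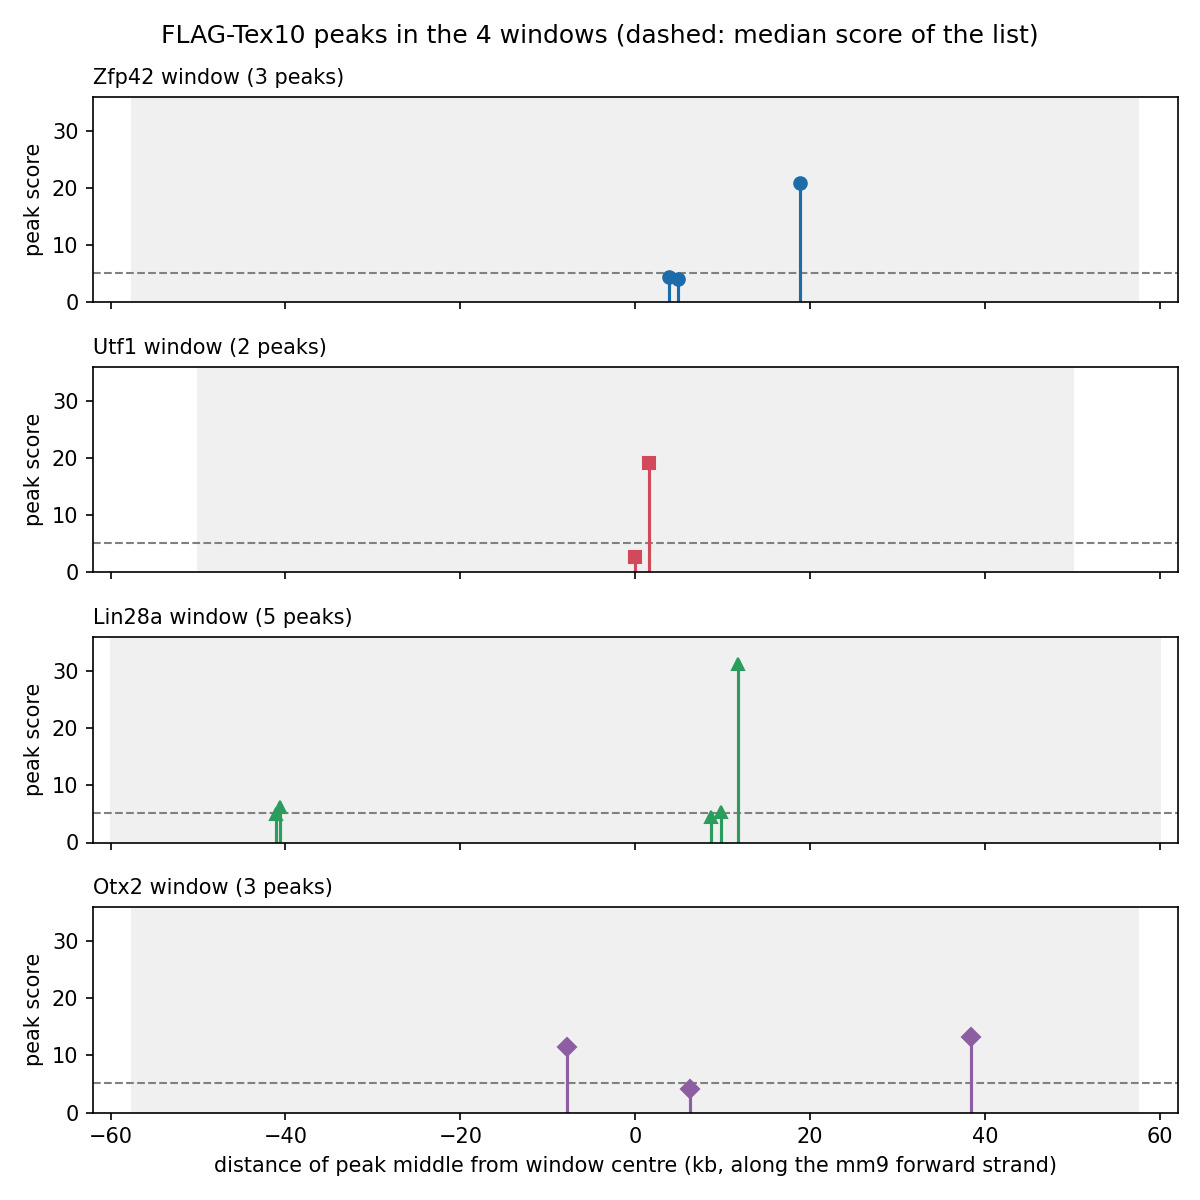
Score of each peak (vertical axis) by the distance of its middle from the centre of its window (horizontal axis, kb along the mm9 forward strand), with the window shaded and the list's median score of 5.22 dashed. The strongest peak is the last in each of the 4 windows, Utf1 peaks sit at the centre, and the peaks of the Lin28a and Otx2 windows are spread over 53.2 and 46.9 kb.

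Peaks were more crowded in these windows than over the autosomes at large. Windows of 115 kb laid end to end over the 19 autosomes held 1 or more peaks in 16.3% of 21488 cases, and 1.64% held 3 or more, as the Zfp42 and Otx2 windows did. Of 24712 windows of 100 kb, 14.6% held a peak and 3.97% held 2 or more, as at Utf1. Of 20593 windows of 120 kb, 16.9% held a peak and 0.257% (53 windows) held 5 or more, as at Lin28a. The windows were placed at genes chosen for their part in ES cells, with earlier results of these data known, and most tiled windows held no peak. Among windows that held a peak, a background added after the data were seen, 10.0% had 3 or more at 115 kb, 27.1% had 2 or more at 100 kb and 1.52% had 5 or more at 120 kb. Against that background the Utf1 count was a common one, and the Lin28a count was the least common of the 4. On chromosome 8, which was rich in peaks (3.36 per Mb, against 1.99 on chromosome 7, 2.41 on chromosome 4 and 1.56 on chromosome 14), 3.84% of windows held as many as the Zfp42 window.

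**Figure D3:**
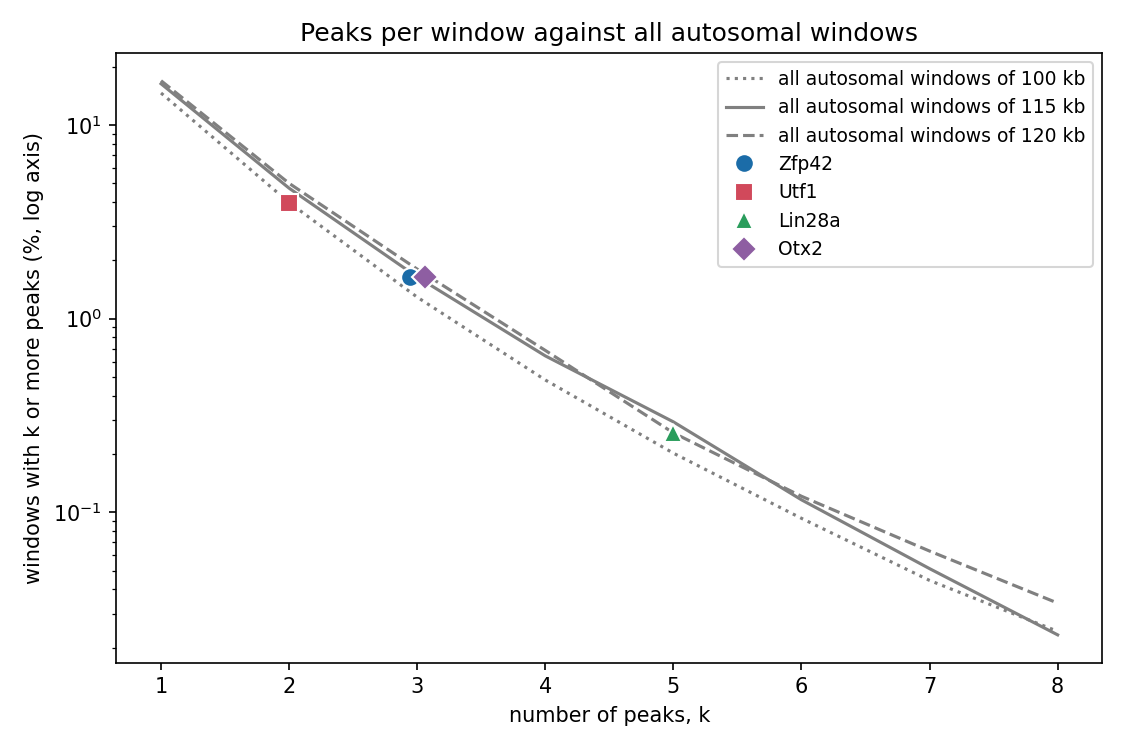
Percentage of autosomal windows (log axis) that held at least the number of peaks on the horizontal axis, for windows of 100, 115 and 120 kb (lines), with the 4 genes marked at their own counts on the line of their own length. Utf1 stands at 3.97%, Zfp42 and Otx2 at 1.64% and Lin28a at 0.257%.

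The strength of the highest peak was also set against the tiled windows, alone and together with the count, where the joint share is by construction no larger than either single one. A peak as strong as the highest at Lin28a occurred in 0.490% of 120 kb windows, and 4 of them (0.0194%) also held 5 or more peaks. A peak as strong as the highest at Zfp42 occurred in 0.768% of 115 kb windows, and in 0.181% together with 3 or more peaks. For Utf1 the shares of 100 kb windows were 0.797% and 0.360%. For Otx2 the shares of 115 kb windows were 1.85% and 0.414%. Among windows that held a peak, one as strong was found in 2.91% for Lin28a, 4.70% for Zfp42, 5.45% for Utf1 and 11.3% for Otx2. These shares describe the list and carry no p-value.

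Closeness also varied among the 4 genes. With peaks less than 12500 bp apart counted as 1 stretch, the Utf1 window had 1 stretch, the Zfp42 and Lin28a windows 2 and the Otx2 window 3. In all, 9 of the 13 peaks (69.2%) had a neighbour within that distance, where 29.3% of 5120 autosomal peaks did. These 2 shares are not alike, because all 4 windows held 2 or more peaks and the autosomal share includes lone peaks. A share over peaks of windows with 2 or more peaks was not computed. The 4 peaks without such a neighbour were the strongest Zfp42 peak and the 3 Otx2 peaks. The Zfp42 gap of 13.4 kb and the first Otx2 gap of 13.6 kb were just over the limit. No window held a stretch of 5 or more peaks, which made up 0.401% of autosomal stretches, and the 3-peak stretch at Lin28a was the largest of the 4 windows. No peak outside a window was within 12500 bp of a member.

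Width added to the difference between genes. The median width of the 13 peaks was 319 bp, against 314 bp in the list. The highest peaks of Zfp42 (583 bp) and Otx2 (564 bp) were wide, with 6.88% and 7.69% of the list wider, and those of Lin28a (407 bp, 24.0% wider) and Utf1 (361 bp, 34.8% wider) were nearer the middle. The strongest peak was also the widest of its window at 3 genes, the exception being Otx2. How often this holds in other windows with several peaks was not counted, so it cannot be called particular to these genes. The Utf1 window had only 2 peaks to compare. The first Zfp42 peak combined a width of 506 bp, which 11.3% of the list exceeded, with a score under the median. The members covered 1.40% of the Otx2 window, 1.24% of the Lin28a window, 1.21% of the Zfp42 window and 0.585% of the Utf1 window.

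**Figure D4:**
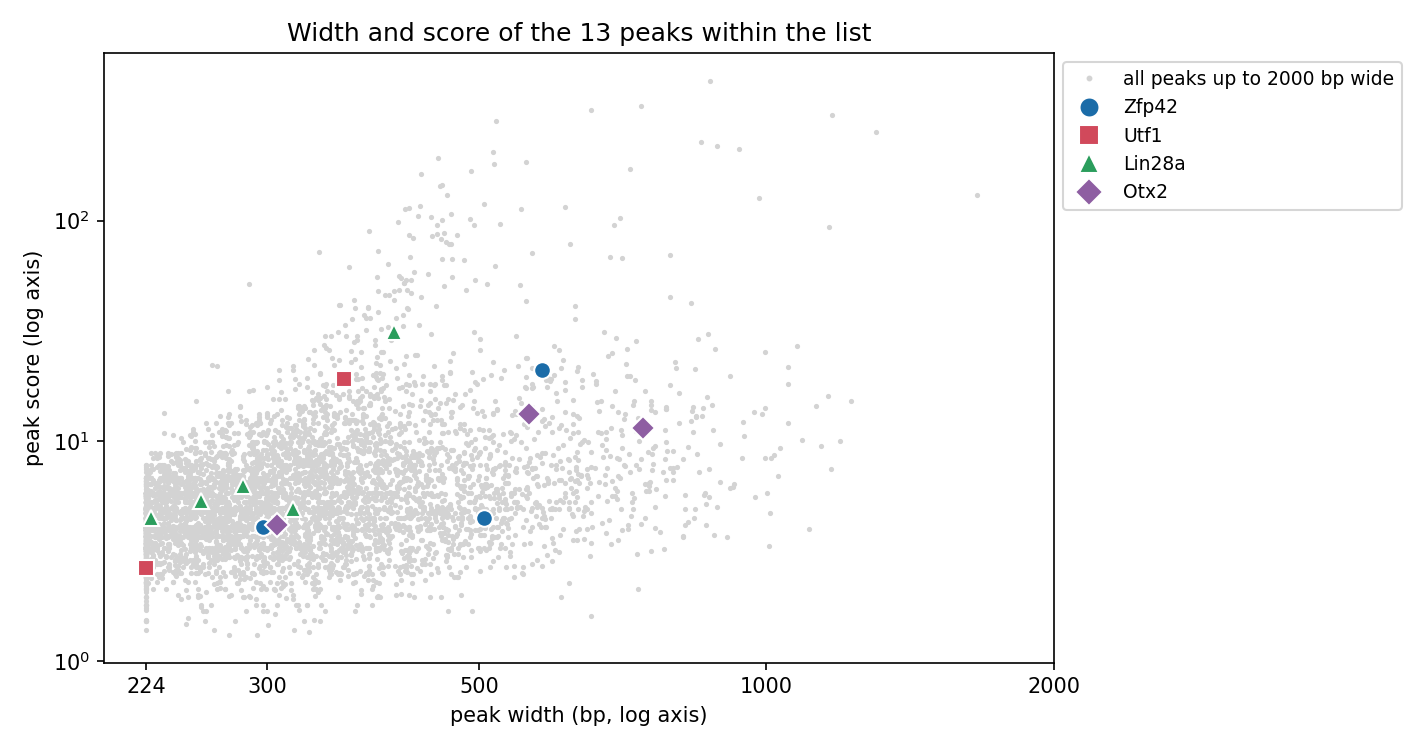
Peak score against peak width (both log axes) for the list (grey, without the 3 peaks wider than 2000 bp) and the 13 peaks (coloured by gene). The strongest Lin28a and Utf1 peaks, 407 and 361 bp wide, are narrower than the strongest Zfp42 and Otx2 peaks, 583 and 564 bp wide, although the Lin28a peak has the highest score of the 13.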

How the data were processed

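The series has 3 ChIP-seq samples, each a group of 1 by its antibody or title, and the values come from the peak list of the FLAG library. Each peak has a position and a score as the authors deposited it, with no header. The submitters' processing notes name the mm9 build and, without saying what each did, bedtools 2.18.1, SAMtools 0.1.19, Bowtie 1.0.0 and FastQC 0.10.1. The peak caller, its threshold, the control used and the scale of the score are not given in the sources used here. A peak under that threshold is not in the list, so peaks per window depend on the unknown depth.

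Peaks were taken by overlap with the 4 windows and given 1-based starts. Ranks, gaps and stretches were computed with Python 3.11.15, numpy 2.4.6 and pandas 2.3.3, and exact binomial (Clopper-Pearson) 95% limits for the alternatives with scipy 1.17.1. The mm9 chromosome lengths came from GenomeInfoDb 1.38.1, and 0 peaks ran past a chromosome end. Background windows were tiled from the first base of each autosome, assembly gaps included. Figures were drawn with matplotlib 3.10.9. The counting was tested on simulated peaks. Named are the 4 genes, all their peaks, the nearest peak on each side of each window and the adjacent protein-coding genes, the last chosen later. The gene windows were chosen with earlier results of these data known, and the promoter motifs, peak-free intervals, widths and repeated scores were chosen after the list was seen. Symbols, gene order and promoters came from RefSeq tables of GRCm38.p6, and no coordinates were converted between builds.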

Additional observations from a re-analysis of the deposited data

How the results depend on the processing

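Of 56 values recomputed under an alternative, 35 stayed within 1.5 times (counts) or within the exact binomial 95% interval of the value given above (shares), and 21 moved further. Such intervals, here and below, treat peaks or windows as independent draws, and each chromosome is part of the whole. They measure no error between libraries and test no difference. With only peaks at or above the median score, the Zfp42 and Utf1 windows kept 1 peak each and Lin28a 3, and with those at or above the upper quartile of 7.73 Zfp42, Utf1 and Lin28a kept 1 each. Otx2 kept 2 under both. Trimming the windows by 20 kb on each side left 3 peaks at Lin28a and 2 at Otx2, where the strongest peak was the one lost, while widening them by 50 kb added none at any gene. The share of peaks above the strongest member, when counted on its own chromosome, was 3.16% for Zfp42, 3.47% for Lin28a and 4.62% for Otx2. These moved, but their own wider 95% intervals (1.74 to 5.25, 1.86 to 5.86 and 2.13 to 8.58) held the values given above. The share of windows with as many peaks was 3.84% for Zfp42, 3.61% for Utf1 and 1.01% for Otx2 on their own chromosomes. The own intervals of Utf1 (2.73 to 4.67) and Otx2 (0.506 to 1.80) held the value given above, and that of Zfp42 (2.81 to 5.12) did not. With peaks at or above the median score it was 9.41%, 8.37% and 0.466% for Zfp42, Utf1 and Lin28a. Among windows that held a peak, an alternative added after seeing the data, it was 10.0%, 27.1%, 1.52% and 10.0% for Zfp42, Utf1, Lin28a and Otx2. Joining peaks less than 25 kb apart left 1 stretch at Zfp42. Fewer peaks or fewer windows follow from how each alternative is built. No paired analysis was possible because no group has a replicate and only the FLAG list was analysed. The unknown depth limits what can be said of places with no listed peak.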
